A study of Homo sapiens with 4 samples.

Results

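Long intergenic noncoding RNAs carrying a LINC symbol were followed between CD133+ and CD133- cells of PLC8024, a human hepatocellular carcinoma line. Members were all probe sets of the array whose platform annotation gave exactly 1 gene symbol and that symbol began with LINC, other than LINC00473. This gave 1087 of 54675 probe sets and 840 of 19775 named genes, and 832 of the 840 matched a RefSeq entry, all of them typed as lncRNA. The CD133+ and CD133- populations were separated by flow cytometry from this 1 line, how often it was sorted is not stated, and the deposited data hold 1 array per population as RMA log2 values and as MAS5 linear intensities. Both are otherwise untreated in the labels, and the labelled RNA was total RNA from a Trizol extraction, given biotin with the Ambion MessageAmp II kit. RMA and MAS5 are ways of summarising the probes of an array and were never taken as replicates, so no difference below has a replicate error or a p-value, and the precision of each one is limited by how few arrays there are. The labels do not say whether the RMA and MAS5 values of a population came from 1 array.

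Long intergenic noncoding RNAs are transcripts from between protein-coding genes that are mostly spliced and polyadenylated and are not known to be translated. Some act in the nucleus on neighbouring genes or on chromatin complexes, others bind proteins or microRNAs in the cytoplasm, and many have no described role. They tend to be made at low levels and in few tissues, and several have been studied in liver tumours.

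The sort and the cell identity were checked first. PROM1, which encodes CD133, had RMA values of 10.35 in CD133+ cells and 6.04 in CD133- cells, and MAS5 intensities of 5849 in CD133+ and 279.1 in CD133-. All 10 liver markers with a named probe set were expressed, and 3 of them, ALB, AFP and APOA1, were lower in CD133+ by 2-fold or more with RMA as well as MAS5, with summed MAS5 intensities over the 10 of 136345 in CD133+ and 163069 in CD133-. Of 5 leukocyte, 5 endothelial, 6 fibroblast and 2 erythroid markers, 3, 1, 3 and 2 reached the floor defined below. Among these LYZ passed the same limit as higher in CD133+ and PECAM1 as lower, while PTPRC and CDH5 were under the floor in both populations. The part of these markers in the LINC results was not tested. Fewer cells that make an RNA and less of that RNA per cell cannot be told apart in such bulk samples.

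Most LINC genes lay low on the array. A gene was taken as expressed if the higher of its RMA values was at or above the median over all probe sets in the same column, 5.16 in CD133+ and 5.14 in CD133-. Where a gene had several probe sets, the one with the highest mean RMA value represented it. By this floor 176 LINC genes were expressed, which is 21.0% of the 840, against 66.3% of all named genes. The median of the higher RMA value over all LINC genes was 3.77, against 6.36 over all named genes. At the edge of the floor, LINC01898 had an RMA value of 5.16 in both populations and was just inside, while LINC01007, with 4.74 in CD133+ and 5.14 in CD133-, was just outside.

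**Figure D1:**
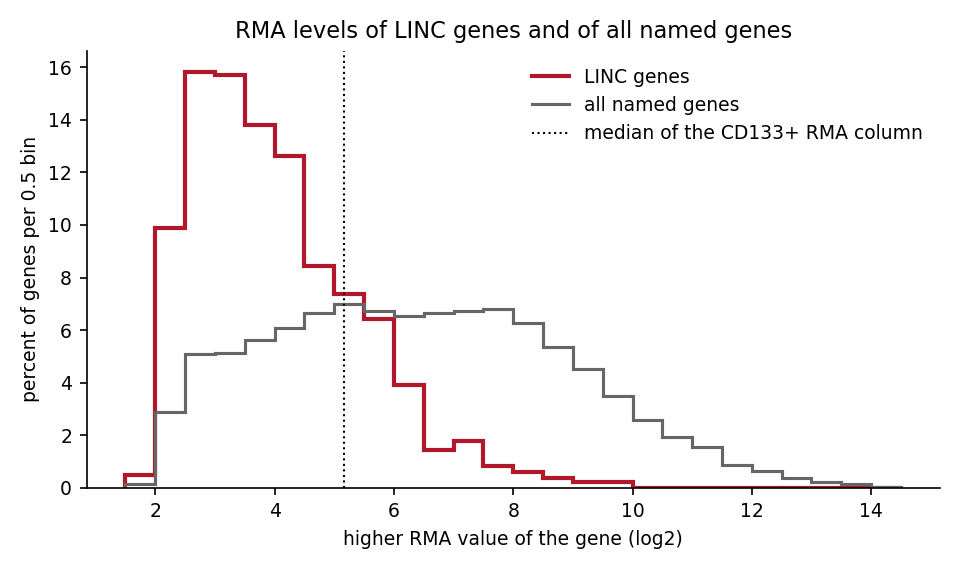
Percent of genes (y axis) in each bin of 0.5 of the higher RMA value of the gene (x axis, log2), for the 840 LINC genes and for all 19775 named genes, with the CD133+ column median of 5.16 dotted. LINC genes crowd below the dotted line, where 664 of the 840 lie.

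A part of the expressed LINC genes was low in MAS5. In 57 of the 176, or 32.4%, the higher MAS5 intensity was under the median of its MAS5 column, against 9.87% of all expressed genes. LINC02709 is an example chosen after its values were seen, with RMA values of 6.49 in CD133+ cells and 6.71 in CD133- cells but MAS5 intensities of 18.6 in CD133+ and 20.8 in CD133-. The RMA floor therefore admitted members that MAS5 places in the lower part of its column, and none of these 57 was among the genes counted below. Of all expressed genes, 1295 were under the MAS5 median and only 2 of them passed the same count rule. The absence of the 57 from the count is thus near what genes at large show.

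The count rule asked that an expressed LINC gene reach a 2-fold difference with RMA and also with MAS5, both pointing the same way. Of the 176 expressed LINC genes 5 were counted as higher, or 2.84%, and 3 as lower, or 1.70%. The same rule called 2.25% of all 13116 expressed genes higher and 1.09% lower, so both shares of LINC genes were near the background. The 5 higher genes were LINC02901, LINC01224, LINC02482, LINC00467 and LINC02381, and the 3 lower ones were LINC00508, LINC00667 and LINC00526. RMA alone, which by this rule cannot lose any of the 8, added no other LINC gene.

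**Figure D2:**
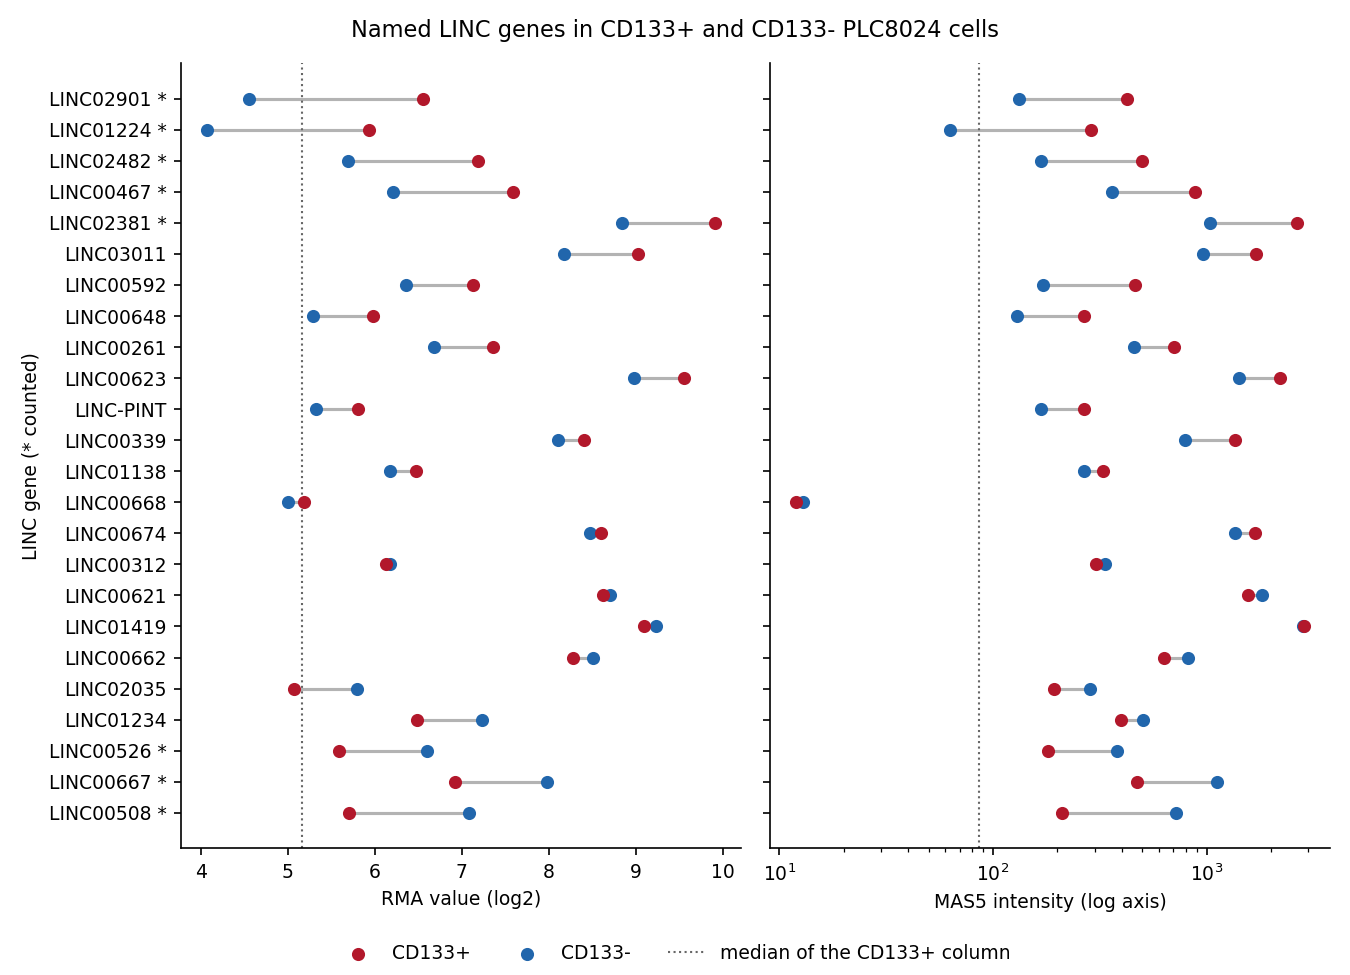
RMA values (left, log2) and MAS5 intensities (right, log axis) of 24 named LINC genes in CD133+ (red) and CD133- (blue) cells, 1 array per population in each processing, ordered by RMA difference. Stars mark the 8 counted genes, and the dotted lines are the CD133+ column medians, 5.16 in RMA and 86.0 in MAS5. LINC02901 and LINC01224 are the counted genes whose CD133- RMA value is left of the dotted line.

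LINC02901 and LINC01224 had the largest RMA differences and reached the RMA floor in CD133+ only. LINC02901 (probe set 230487_at, chromosome 6) had RMA values of 6.55 in CD133+ cells and 4.56 in CD133- cells, and MAS5 intensities of 423 in CD133+ and 133 in CD133-. The log2 difference was 1.99 with RMA and 1.67 with MAS5. Its CD133- intensity was above the CD133- MAS5 median of 86.1, so MAS5 does not place it low there. LINC01224 (233142_at, chromosome 19), which has been studied in hepatocellular carcinoma, had RMA values of 5.94 in CD133+ cells and 4.07 in CD133- cells, and MAS5 intensities of 288 in CD133+ and 63.3 in CD133-. Its differences were 1.87 and 2.18. No fold is given for either gene, since the CD133- RMA value was under the floor. Each of the 2 has a single named probe set, so no second probe set could be set beside these values.

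The sequence around the start of both genes, from 250 bases before it to 50 after it, is shown here because they carried the largest differences and because the windows are unlike in base composition. Both come from RefSeq on GRCh38.p14 and are written along the gene's own strand. Capitals mark matches on either strand to 5 motifs. The GC box was searched as GGGCGG. The box named CCAAT was searched by those letters. The TATA box was searched as TATAAA. The cAMP response element was searched as TGACGTCA and the motif of ETS factors as CCGGAAG. No matches overlap in the windows shown. LINC02901 is at chr6:158869564-158869863 on the + strand, and LINC01224 at chr19:23416025-23416324 on the - strand.

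LINC02901: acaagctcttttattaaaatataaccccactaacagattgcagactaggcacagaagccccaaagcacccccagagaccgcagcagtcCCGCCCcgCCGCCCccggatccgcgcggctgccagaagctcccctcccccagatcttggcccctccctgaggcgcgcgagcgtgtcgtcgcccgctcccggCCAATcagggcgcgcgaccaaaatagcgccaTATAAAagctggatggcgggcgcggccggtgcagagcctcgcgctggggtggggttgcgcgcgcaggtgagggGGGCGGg

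LINC01224: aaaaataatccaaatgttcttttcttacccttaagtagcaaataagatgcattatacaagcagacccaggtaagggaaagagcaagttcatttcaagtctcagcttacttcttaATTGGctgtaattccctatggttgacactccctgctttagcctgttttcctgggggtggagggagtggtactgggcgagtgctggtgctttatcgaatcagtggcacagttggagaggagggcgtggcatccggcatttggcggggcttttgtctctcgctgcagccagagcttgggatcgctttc

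The LINC02901 window held 30 CpG dinucleotides in 300 bases, with 3 GC box matches, 1 CCAAT match and 1 TATAAA match. The LINC01224 window held 7 CpG dinucleotides and 1 CCAAT match. In all 27305 gene windows of the table, 44.6% held a GC box match, 35.7% a CCAAT match and 11.95% a TATAAA match. These matches describe letters only and show no binding.

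LINC02482, LINC00467 and LINC02381 were expressed in both populations and higher in CD133+. LINC02482 (229189_s_at, chromosome 4) had RMA values of 7.19 in CD133+ cells and 5.70 in CD133- cells, and MAS5 intensities of 497 in CD133+ and 167 in CD133-, which is 2.81-fold in RMA and 2.97-fold in MAS5. Its other probe set, 229190_at, had RMA values of 6.63 in CD133+ cells and 5.23 in CD133- cells, a difference of 1.39, so the call did not rest on the _s_at probe set, a kind that can bind several transcripts. LINC00467 (224444_s_at, chromosome 1), a transcript studied in several tumours, had RMA values of 7.59 in CD133+ cells and 6.21 in CD133- cells, and MAS5 intensities of 881 in CD133+ and 361 in CD133-. This is a fold of 2.60 with RMA and of 2.44 with MAS5. Its other probe set, 224443_at, had an RMA difference of 1.42. In both genes the RMA differences of the paired probe sets thus lay within 0.10 of each other.

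LINC02381 (226582_at, chromosome 12) had the highest mean RMA value of all LINC genes. Its RMA values were 9.91 in CD133+ and 8.84 in CD133-, and its MAS5 intensities 2657 in CD133+ and 1037 in CD133-. The difference of 2.10-fold in RMA and 2.56-fold in MAS5 lay close to the 2-fold limit in RMA. The gene lies beside the HOXC cluster of homeobox transcription factors. HOXC4 and HOXC6, chosen after their values were seen, differed by 0.74 and 0.54 with RMA and by 1.23 and 0.74 with MAS5 on the log2 scale, and neither was counted.

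**Figure D3:**
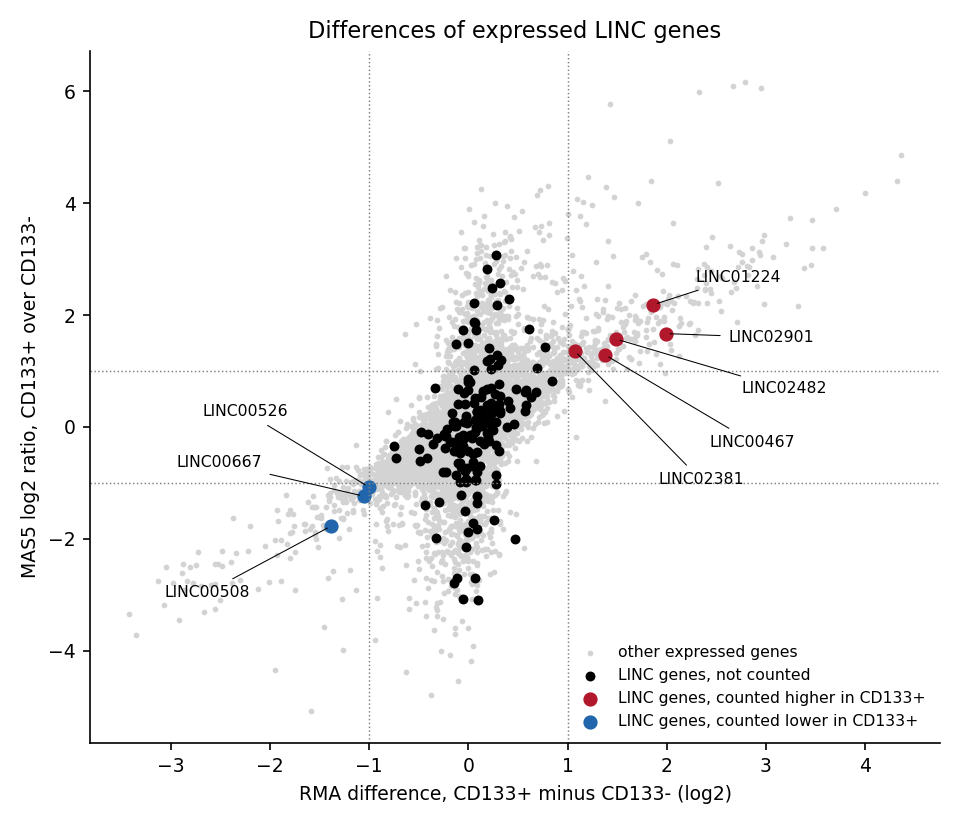
RMA difference (x axis, CD133+ minus CD133-, log2) against MAS5 log2 ratio (y axis, CD133+ over CD133-) of all 13116 expressed genes, with LINC genes in black, red and blue and the 2-fold limits dotted. The 5 red LINC genes lie past both limits on the CD133+ side and the 3 blue ones on the CD133- side, and most black points spread along the MAS5 axis near an RMA difference of 0.

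Of the 3 genes lower in CD133+, LINC00508 (1555187_at, chromosome 12) had the largest difference. Its RMA values were 5.70 in CD133+ and 7.09 in CD133-, and its MAS5 intensities 210.0 in CD133+ and 718 in CD133-. It was 2.61-fold lower in CD133+ in RMA and 3.42-fold lower in MAS5. It has 1 named probe set, and no role is given for it here.

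LINC00667 and LINC00526, the other two genes counted as lower, are neighbours on chromosome 18 that are transcribed away from each other. LINC00667 (226235_at) had RMA values of 6.92 in CD133+ cells and 7.97 in CD133- cells, and MAS5 intensities of 475 in CD133+ and 1121 in CD133-, which is 2.08-fold lower in RMA and 2.36-fold lower in MAS5. LINC00526 (229829_at) had RMA values of 5.59 in CD133+ cells and 6.60 in CD133- cells, and MAS5 intensities of 182 in CD133+ and 382 in CD133-, which is 2.01-fold lower in RMA and 2.10-fold lower in MAS5. The members of this pair differed by nearly the same amount, with RMA differences of -1.05 for LINC00667 and -1.004 for LINC00526, and LINC00526 only just reached the 2-fold limit. LINC00667 has 4 probe sets, all expressed and all lower in CD133+, with RMA differences of -1.05, -1.01, -0.78 and -0.61. Their median was -0.90, which is under 2-fold, so LINC00667 was not counted when the median over probe sets was used.

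The start windows of LINC00667 and LINC00526 are shown because they overlap. In RefSeq the gene starts are 71 bases apart, and the windows share 170 bases that hold 24 CpG dinucleotides. LINC00667 is at chr18:5237850-5238149 on the + strand and LINC00526 at chr18:5237980-5238279 on the - strand of GRCh38.p14. Each is written along its own strand with the same 5 motifs in capitals.

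LINC00667: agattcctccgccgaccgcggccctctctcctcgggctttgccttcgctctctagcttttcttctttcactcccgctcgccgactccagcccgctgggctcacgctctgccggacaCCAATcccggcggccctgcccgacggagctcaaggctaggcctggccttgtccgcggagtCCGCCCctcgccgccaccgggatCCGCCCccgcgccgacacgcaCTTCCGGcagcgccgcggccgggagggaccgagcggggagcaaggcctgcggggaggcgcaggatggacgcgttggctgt

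LINC00526: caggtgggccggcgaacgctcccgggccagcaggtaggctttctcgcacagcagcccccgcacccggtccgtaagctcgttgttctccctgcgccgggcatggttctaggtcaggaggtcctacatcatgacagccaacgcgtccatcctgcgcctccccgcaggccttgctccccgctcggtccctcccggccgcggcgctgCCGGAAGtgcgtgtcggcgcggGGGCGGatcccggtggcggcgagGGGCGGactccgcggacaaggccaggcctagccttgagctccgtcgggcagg

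Both windows held 72.0% G and C. The 2 GC box matches and the ETS match lie in the shared stretch and are read from opposite strands, while the CCAAT match is in the LINC00667 window only. The ETS letters were found in 10.7% of all windows in the table and in 10.4% of those of expressed LINC genes.

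Apart from that pair, no expressed gene beside a counted LINC gene was itself counted. On each side the nearest gene with a named probe set was taken from the RefSeq order, which gave 16 neighbours. Outside the LINC00667 and LINC00526 pair there were 14 neighbours, of which 7 were expressed and 0 counted, and in 6 of the 7 the RMA difference had the sign of the LINC gene. The 2-fold rule called 3.34% of all expressed genes in either direction, so 0 of 7 is near that background too.

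The closest neighbour values were small beside those of the LINC genes. TRAF5, which encodes a signalling adaptor of tumour necrosis factor receptors and lies beside LINC00467, had RMA values of 7.44 in CD133+ cells and 6.89 in CD133- cells, a difference of 0.55. ZNF91, a zinc finger repressor of retroelements beside LINC01224, had 7.59 in CD133+ and 7.07 in CD133-, a difference of 0.52. ZBTB14, a zinc finger gene on the far side of LINC00667, had 6.59 in CD133+ and 6.54 in CD133-, a difference of 0.06 in RMA and -0.74 in MAS5. The remaining expressed neighbours SMUG1, MRFAP1L2, MRFAP1 and RSPH3 had RMA differences of 0.28, 0.19, 0.18 and 0.10.

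**Figure D4:**
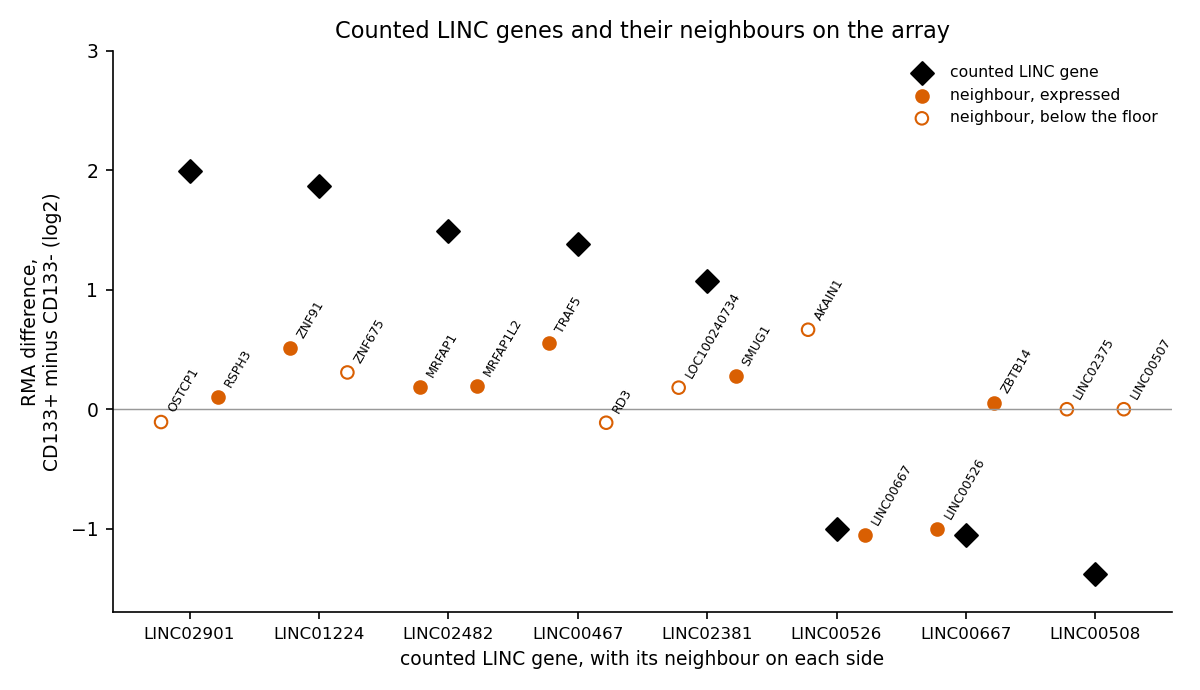
RMA difference (y axis, CD133+ minus CD133-, log2) of the 8 counted LINC genes (black diamonds) and of the nearest gene with a named probe set on each side (orange, filled where expressed, open where below the floor). LINC00667 and LINC00526 lie together at about -1, while the other filled circles lie between 0.06 and 0.55.

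Over 214 pairs of an expressed LINC gene and an expressed neighbour, Pearson's r between the RMA differences was 0.20 and Spearman's rho 0.16. Over 9473 pairs of adjacent expressed genes of any kind r was 0.17 and rho 0.19, so both sets show a weak relation. All pairs share the same 2 RMA columns, and genes are not replicates, so the values are a description. There were 9 adjacent pairs of expressed LINC genes, and LINC00667 with LINC00526 was the only pair in which both were counted.

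Most counted LINC genes lay in the lower classes of level, and LINC02381 alone lay in the highest. All expressed genes were divided into 4 equal classes by the mean of both RMA values, a division chosen after the values were seen. The lowest class held 123 of the 176 LINC genes, and 3 of these, LINC01224, LINC02901 and LINC00526, were counted, or 2.44%, against 4.27% of all genes of that class. The upper 3 classes held 53 LINC genes, of which 5 were counted, or 9.43%, against 3.03% of all genes of those classes. These 5 were LINC00467, LINC00508, LINC00667, LINC02482 and LINC02381. The pooled shares are not matched in level, since the second class alone held 37 of the 53. In that class 4 LINC genes were counted, or 10.8%, against 4.85% of all genes. In the third class 0 of 13 were counted and in the fourth 1 of 3, against 2.53% and 1.71% of all genes. Membership of the 176 still depends on the higher value, so these shares are a description with no test.

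As a group the LINC genes sat close to no difference, with a median slightly above 0. The median RMA difference of the 176 was 0.07 with an interquartile range of -0.08 to 0.24, against a median of 0.00 over all expressed genes. In the lowest level class, which holds most LINC genes, the median was 0.06 for LINC genes and 0.05 for all genes. In the upper 3 classes it was 0.13 for the 53 LINC genes and -0.02 for all genes. The RMA difference was above 0 in 105 of the 176, below 0 in 65 and exactly 0 in 6, so 59.7% were above 0 against 48.2% of all expressed genes. The median in MAS5 was 0.05. For a single LINC gene, the gap between the RMA differences of a pair of its probe sets had an SD of 0.31 across the 30 LINC genes with at least 2 expressed probe sets, and this spread leaves out any variation between sorts.

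Some members reached the floor in 1 population only. There were 19 such LINC genes in CD133+, or 10.8%, and 8 in CD133-, or 4.55%, against 2.97% and 2.28% of all expressed genes. These shares are not matched in level, and genes near the floor can cross it with a small difference. The lowest class by mean RMA value held 123 of the 176 LINC genes, but 3280 of all 13116 expressed genes. Whether the LINC shares are larger than those of other genes at the same level was not tested. The 19 and the 8 LINC genes were picked by the population in which they are high, which fixes the sign of their differences. The 19 had RMA differences from 0.09 to 1.99 with a median of 0.28, and the 8 had differences from -0.73 to -0.13 with a median of -0.38.

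MAS5 differences of LINC genes were wide where RMA differences were not. Of the 176 expressed LINC genes 51 differed by at least 2-fold in MAS5, or 29.0%, against 13.3% of all expressed genes, and 8 did so in RMA, or 4.55%, against 3.71%. Under the MAS5 median, 23 of 57 LINC genes and 502 of all 1295 expressed genes differed 2-fold in MAS5, which are like shares. Over that median it was 28 of 119 LINC genes and 1237 of all 11821, a larger share for LINC genes. The sign was the same in both processings in 125 of the 176, or 71.0%, against 77.8% of all expressed genes. LINC01743 and LINC00598, chosen after their values were seen, show the extremes. LINC01743 had MAS5 intensities of 14.3 in CD133+ and 123 in CD133- but RMA values of 6.02 in CD133+ cells and 5.92 in CD133- cells. LINC00598 had MAS5 intensities of 48.0 in CD133+ and 5.71 in CD133- but RMA values of 5.47 in CD133+ cells and 5.20 in CD133- cells.

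Among expressed LINC genes that were not counted, LINC03011 and LINC00592 came closest on the CD133+ side. LINC03011 (chromosome 7) had RMA values of 9.02 in CD133+ cells and 8.17 in CD133- cells, and MAS5 intensities of 1710 in CD133+ and 967 in CD133-, which is 1.80-fold and 1.77-fold. LINC00592, which lies beside the keratin gene KRT7, had RMA values of 7.13 in CD133+ cells and 6.36 in CD133- cells, and its 2.70-fold difference in MAS5 was not matched by the 1.70-fold one in RMA. LINC00648 had RMA values of 5.98 in CD133+ cells and 5.29 in CD133- cells, with a log2 difference of 0.69 by RMA and 1.05 by MAS5.

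On the other side LINC01234, which has been studied in gastric and liver tumours, had RMA values of 6.49 in CD133+ cells and 7.23 in CD133- cells, a difference of -0.75 in RMA and -0.34 in MAS5. Its other probe set was under the floor and had an RMA difference of 0.06. LINC02035 had RMA values of 5.07 in CD133+ cells and 5.80 in CD133- cells, with differences of -0.73 and -0.55, and was under the floor in CD133+.

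LINC00261, a transcript needed for endoderm differentiation and a neighbour of the liver transcription factor gene FOXA2, was also not counted. It had RMA values of 7.36 in CD133+ cells and 6.68 in CD133- cells, and MAS5 intensities of 701 in CD133+ and 456 in CD133-, a log2 difference of 0.68 by RMA and 0.62 by MAS5. FOXA2, chosen after its values were seen, had RMA values of 9.13 in CD133+ cells and 8.85 in CD133- cells, a difference of 0.28.

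LINC genes with a described role were taken next. Of 33 such genes listed, 23 had a named probe set, and 9 of these were expressed. Of the 9, 1 was counted, LINC00467, or 11.1% against the 3.34% over all expressed genes, which for so few genes is 1 call. Their median RMA difference was 0.31, against 0.00 over all expressed genes. LINC-PINT, a p53-induced transcript, had RMA values of 5.81 in CD133+ cells and 5.33 in CD133- cells, a difference of 0.48. Its other probe sets were under the floor, with RMA differences from -0.09 to 0.40. LINC00339 and LINC01138, the second of which binds the arginine methyltransferase PRMT5 in liver tumour cells, had RMA differences of 0.31 each. LINC00662, LINC00668 and LINC00312 had -0.24, 0.19 and -0.05.

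The 14 listed genes that were not expressed had higher RMA values from 2.16 to 4.44. These include LINC01093, LINC01554, LINC01018 and LINC00844, transcripts known from normal liver. LINC01554 had RMA values of 4.34 in CD133+ cells and 4.41 in CD133- cells, LINC01018 had 3.36 in CD133+ and 3.15 in CD133-, LINC01093 had 2.76 in CD133+ and 2.90 in CD133-, and LINC00844 had 2.26 in CD133+ and 2.33 in CD133-. These named LINC transcripts were thus under the floor in both populations, while the protein-coding liver markers above were expressed. Being under the floor was usual for LINC genes, as 664 of the 840 were. Of the 23 listed genes with a named probe set 39.1% were expressed, against 21.0% of all LINC genes. LINC00261, from the same list and beside FOXA2, was expressed in both populations.

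Of the 6 LINC genes with the highest levels, LINC02381 was counted, and LINC03011 and LINC00623 differed by less than 2-fold in favour of CD133+. LINC01419, which has been studied in liver tumours, had RMA values of 9.09 in CD133+ cells and 9.23 in CD133- cells, and MAS5 intensities of 2869 in CD133+ and 2833 in CD133-. LINC00623 had RMA values of 9.55 in CD133+ cells and 8.98 in CD133- cells, and MAS5 intensities of 2206 in CD133+ and 1426 in CD133-, which is 1.49-fold and 1.55-fold. LINC00621 had RMA values of 8.62 in CD133+ cells and 8.70 in CD133- cells, and LINC00674 had 8.60 in CD133+ and 8.48 in CD133-. LINC00623 and LINC00621 are each read by 1 _x_at probe set, a kind that can bind unrelated transcripts, so their signal may not be theirs alone. The 4 probe sets of LINC00674 had RMA differences from -0.31 to 0.12.

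Start windows were found for 135 of the 176 expressed LINC genes and 452 of the 664 below the floor, and those of expressed LINC genes were richer in CpG. The median observed over expected CpG ratio was 0.40 in expressed LINC genes and 0.24 in LINC genes below the floor. A ratio of at least 0.6 was found in 31.9% of the first and 17.0% of the second. In expressed and unexpressed named genes at large the shares were 78.8% and 39.3%. Of the 8 counted LINC genes 6 had a window, and 4 of these, LINC00667, LINC00526, LINC02901 and LINC02482, had a ratio of at least 0.6. The windows of LINC00667 and LINC00526 share 170 bases, so they are not separate stretches.

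**Figure D5:**
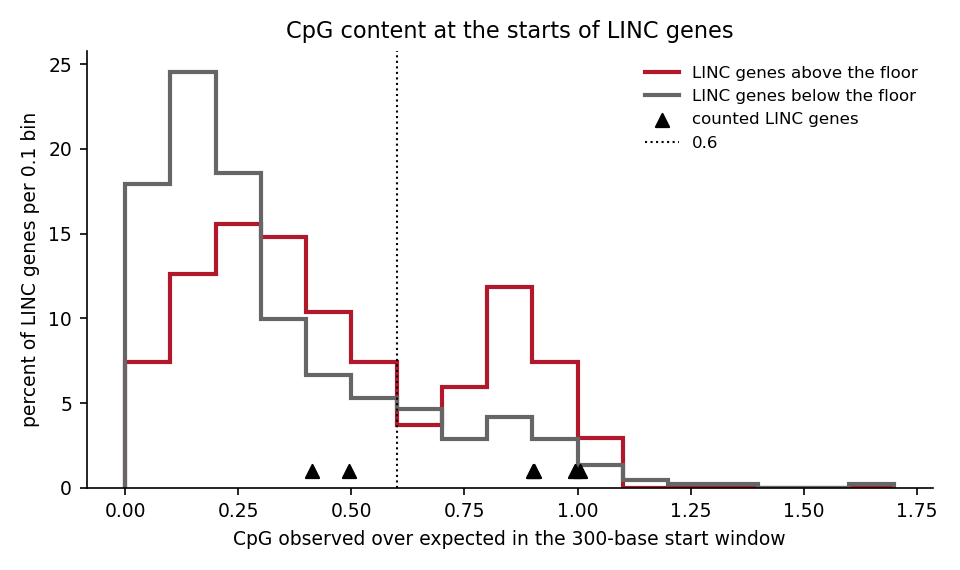
Percent of LINC genes (y axis) in each bin of 0.1 of the CpG observed over expected ratio in the 300-base start window (x axis), for 135 expressed LINC genes and 452 below the floor. Triangles mark the 6 counted genes with a window, 4 of them right of the dotted line at 0.6, including LINC00667 and LINC00526, whose windows overlap.

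A GC box match was found in 39.3% of the windows of expressed LINC genes and in 17.7% of those below the floor, and a TATAAA match in 13.3% and 18.1%. The cAMP response element was found in 3 windows of expressed LINC genes, or 2.22%, against 1.98% of all windows in the table, and in 0 of the 6 windows of counted genes. Window composition differs with level in genes at large too, and its part in the differences between the populations was not tested.

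Other classes of long noncoding RNA were set beside the LINC genes, with no test of the difference. Antisense RNAs, whose symbols end in -AS and a digit or in -AS alone, had 247 of 792 genes expressed, or 31.2%, with 1 counted as higher, or 0.405%, and 2 as lower, or 0.810%, against 2.25% and 1.09% of all expressed genes, and a median RMA difference of 0.05. Host genes of small nucleolar RNAs (SNHG) and of microRNAs had 4 and 14 expressed genes and 0 counted, too few to read against 3.34%. Of 50 named long noncoding RNAs listed, 30 had a named probe set, 24 were expressed, or 80.0% of the 30, and 1 was counted, or 4.17% against 3.34% of all expressed genes. This was TP53TG1, a p53-induced transcript. TP53TG1 had RMA values of 7.94 in CD133+ cells and 6.93 in CD133- cells, and MAS5 intensities of 1041 in CD133+ and 507 in CD133-, which is 2.02-fold in RMA.

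DLEU1 and DLEU2, from a region deleted in chronic lymphocytic leukaemia, came close to the 2-fold limit. DLEU1 had RMA values of 8.05 in CD133+ cells and 7.07 in CD133- cells, and DLEU2 7.35 in CD133+ and 6.38 in CD133-, with MAS5 differences of 1.07 and 1.02. JPX, an activator of X inactivation, had a difference of 0.74 in RMA with a CD133- value under the floor. OIP5-AS1, DANCR, ZFAS1 and FENDRR had RMA differences of -0.44, 0.44, 0.39 and -0.50, and FENDRR had the opposite sign in MAS5, at 0.54.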

How the data were processed

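Total RNA of sorted PLC8024 cells was hybridised to oligonucleotide arrays. The authors deposited RMA values on the log2 scale and MAS5 intensity values on a linear scale. Per the submitters' processing notes, the tools were GCOS, MAS5 and RMA, without a version. Which arrays were normalised together is unknown. The MAS5 columns have means of 500.1 after 2% of values are trimmed at each end.

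Probe sets were named from the platform annotation, and those with several genes or none were left out. Gene order, gene type and start windows came from RefSeq tables of assembly GRCh38.p14. RMA differences and MAS5 log2 ratios, with no pseudocount, were computed with Python 3.11.15 and pandas 2.3.3. The code of the count rule was checked on simulated data without noise, with planted differences larger than the limit. Such a check gives no error rate for single arrays.

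Named were the counted LINC genes, the 6 largest RMA differences among expressed LINC genes not counted, the 6 highest levels, expressed LINC genes with a described role, neighbours of counted genes, up to 8 other long noncoding RNAs and PROM1. No LINC gene is typed as protein coding in RefSeq. The members and lists were chosen with earlier results of these data known. Alternatives were RMA alone, MAS5 alone, a MAS5 pseudocount of 50, other floors, the median over probe sets, leaving out _x_at and _s_at probe sets, a 1.5-fold rule and current symbols.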

Additional observations from a re-analysis of the deposited data

How the results depend on the processing

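All 8 counted LINC genes were counted again without _x_at and _s_at probe sets. This could change only LINC02482 and LINC00467, since no other counted gene is represented by such a probe set. RMA alone added no LINC gene, and it could lose none, since the rule asks for RMA and MAS5 both. Current symbols could lose none either, since no LINC symbol differs in RefSeq. A floor in MAS5 too, an alternative chosen after seeing the data, kept all 8. That was settled beforehand, since no counted gene is among the 57 under the MAS5 median. MAS5 alone counted 29 LINC genes as higher and 22 as lower, or 16.5% and 12.5%, against 7.65% and 5.60% of all expressed genes. The 1.5-fold rule counted 10 as higher and 3 as lower, or 5.68% and 1.70%, against 5.32% and 4.17%. No floor gave 8 and 3, or 0.952% and 0.357%, against 1.69% and 0.779%. With the floor at the 75th percentile 3 were higher and 2 lower of 35, or 8.57% and 5.71%, against 2.40% and 1.35%, so that these shares were above those of all genes. With the floor reached in both populations 3 were higher and 3 lower of 149, or 2.01% each, against 1.71% and 0.869%, since LINC02901 and LINC01224 then leave. Level classes cut by the higher RMA value, which the difference itself raises, left 1 counted gene of 125 in the lowest class and 7 of 51 above it. These are 0.8% and 13.7%, against 2.29% and 3.69% of all expressed genes in the same classes. In the second of these classes alone the share was 14.3% of 35 LINC genes, against 4.42% of all expressed genes. A MAS5 pseudocount of 50 left out LINC00526, and the median over probe sets left out LINC00667. The median difference of expressed LINC genes ran from 0.02 in MAS5 with that pseudocount to 0.13 with the 75th percentile floor. No counted gene changed sign under any alternative run. The MAS5 alternatives could not change a sign, since the rule asks RMA and MAS5 to point the same way. Probe set alternatives could act only on LINC02482, LINC00467 and LINC00667, the counted genes with more than 1 probe set. Values of genes that were not counted, which met no such rule, changed sign 6 times. No paired analysis was possible because each population has 1 array in each processing. For the same reason no value has a replicate error, and low signal over background limits the 57 expressed LINC genes under the MAS5 median most.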

Other observations

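Among the 664 LINC genes below the floor, 3 differed by at least 2-fold in RMA, or 0.452%, against 0.826% of all named genes below the floor. All 3 passed that limit in MAS5 in the same direction, as did 0.751% of all named genes below the floor. LINC01242 had RMA values of 4.31 in CD133+ cells and 2.55 in CD133- cells, and MAS5 intensities of 126 in CD133+ and 17.6 in CD133-. LINC00189 had RMA values of 5.11 in CD133+ cells and 3.67 in CD133- cells, and LINC00664 3.66 in CD133+ and 2.57 in CD133-. All 3 were higher in CD133+ and were chosen after their values were seen. In MAS5 alone 298 of the 664, or 44.9%, differed by at least 2-fold, against 44% of all named genes below the floor, a share near that of genes at large.

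The RMA values of the 2 populations were identical in 78 of the 1087 LINC probe sets, or 7.18%, against 5.87% of all probe sets.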
